A study of Mus musculus with 6 samples.

Results

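The transcripts of 9 transcription factors that mark neurons of particular cortical layers were followed in GFP-sorted cortical cells of mouse embryos at E15.5 (embryonic day), among 54146 genes counted. The 9 genes were taken by symbol: Tbr1, Fezf2 and Bcl11b, which mark deep-layer neurons, and Cux1, Cux2, Pou3f2, Pou3f3, Rorb and Mef2c, which were assigned to the upper layers. All 9 were matched to a single Ensembl gene and all passed the filter on low counts. The assignment is a simplification, since Rorb marks layer 4 in particular, Mef2c is also active in blood vessels, microglia and inhibitory neurons, and Bcl11b is also active in inhibitory neurons.

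The study put 3 libraries that carried a hairpin for the microRNA miR-3607 (Mir) beside 3 that carried the scrambled hairpin sold with the vector (Scr). In both groups a plasmid for green fluorescent protein (GFP) under the CAG promoter (0.7 µg/µl) was mixed with the hairpin plasmid under the U6 promoter (1 µg/µl) and electroporated in utero at E14.5 into wild-type embryos. GFP-positive cortical cells were sorted 24 hours later, and each library pooled the cells of 2 embryos. The strain is stated in conflicting ways: ICR in the protocol, C57BL/6 among the characteristics. The title of the series names the Wnt/β-catenin pathway and cortex development as its subject; the comparison here asks how the layer factors stood a day after the hairpin was introduced.

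The cortex is built inside out. Radial glia that line the ventricle, and the intermediate progenitors they give rise to, produce deep-layer neurons first and upper-layer neurons later. Tbr1 is needed for the identity of corticothalamic neurons, while Fezf2 and, downstream of it, Bcl11b (also called Ctip2) direct the fate of subcerebral projection neurons. Cux1 and Cux2 are homeodomain factors of upper-layer neurons, and the POU factors Pou3f2 (Brn2) and Pou3f3 (Brn1) act in progenitors and migrating neurons and are needed to make upper-layer neurons. Around the stage sampled, cortical progenitors are turning from deep to upper layers.

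The strand of the hairpin taken here as the microRNA, and the stretches of 3′ UTR that match its seed, are shown first because the hairpin is what differs between the groups. The strand after the loop of the study's oligonucleotide is written with its seed (bases 2 to 8) in capitals, and the matches below it with the letters that pair with the seed, or with its first part plus an A, in capitals.
miR-3607 strand: gCATGTGAtgaagcaaatcag
Cux2 3′ UTR: ttgagagaggcTCACATGAcccaggctacc
Rorb 3′ UTR: ccagataatgcaCACATGAtttctgaatgt

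The search covered TCACATG, which pairs with bases 2 to 8, and CACATGA, which pairs with bases 2 to 7 and has an A opposite base 1; both overlap in the 8-base form TCACATGA. It read the sense strand of each gene's 3′ UTR, using the transcript whose coding sequence is longest (GENCODE M21, GRCm38). Cux2 (chromosome 5) held a single 8-base match at bases 2857 to 2864 of its 4229-base 3′ UTR, and Rorb (chromosome 19) held CACATGA at bases 7181 to 7187 of 7275. The 3′ UTRs of Tbr1, Fezf2, Bcl11b, Pou3f2, Pou3f3 and Mef2c held neither motif in any annotated coding transcript. The Cux1 transcript searched has a 3′ UTR of 305 bases without a match, and 2 of the 10 coding transcripts of Cux1 hold a match in another 3′ UTR. Of 12920 tested genes with a 3′ UTR, 17.4% held at least 1 of the 7-base motifs and 2.66% the 8-base motif, and 3′ UTRs as long as that of Cux2 were found in 6.17% of them. A match is a string of letters and was not shown here to be a working site.

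The libraries held 14671557 to 15847663 counts in genes in Mir and 12724511 to 16684038 in Scr. They held both progenitors and young neurons: the intermediate progenitor gene Insm1 was at 931 to 1126 CPM (counts per 1000000 counts of the normalized library) in Mir and 544 to 789 CPM in Scr, and Neurod6, a gene of young excitatory neurons, at 1883 to 2271 CPM in Mir and 2003 to 2378 CPM in Scr. The cells labelled as progenitors were therefore a mixture that included young neurons. The libraries did not stand evenly. The 12 inhibitory neuron markers summed to 145, 126 and 342 CPM in the Mir libraries, in the order of replicates 1 to 3, against 277, 1083 and 392.5 CPM in the Scr libraries in the same order. The 9 endothelial markers summed to 1.21, 1.47 and 36.0 CPM in Mir, against 82.2, 219 and 12.4 CPM in Scr, and Cldn5, Pecam1, Cdh5, Tie1 and Emcn, 5 of the 9, had no count in Mir replicates 1 and 2. The 9 microglial markers summed to 10.1, 12.7 and 53.4 CPM in Mir and to 20.1, 56.8 and 74.4 CPM in Scr. The 4 of 7 Cajal-Retzius markers that were tested all had a negative log2 fold change (median -0.64; edgeR called 0, DESeq2 1), with Reln at 4.96 ± 1.98 CPM in Mir and 12.2 ± 3.66 CPM in Scr and Ebf3 at 1.97 ± 0.565 CPM in Mir and 2.15 ± 0.656 CPM in Scr (SD, n = 3). Of the Cajal-Retzius markers too low to test, Trp73 had 3, 0 and 31 counts in Mir and 3, 7 and 0 in Scr. Lhx1 had 5, 6 and 3 counts in Mir and 2, 0 and 0 in Scr. Trp73 and Lhx1 thus had higher means in Mir. Lhx5 had 0, 0 and 1 counts in Mir and 3, 0 and 0 in Scr, a lower mean in Mir. Scr replicate 2 held the most inhibitory neuron and endothelial RNA, and Mir replicates 1 and 2 the least.

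None of the 9 layer factors passed the test between Mir and Scr. Genes were tested with edgeR's quasi-likelihood test with Benjamini-Hochberg adjustment over all 16897 genes tested, at a threshold of 0.05, and the factors' adjusted p-values were 0.246 to 0.919. Of all genes tested 1 was called (0.00592%), lower in Mir. DESeq2 called 580 genes (3.43%; 1.46% higher and 1.97% lower) and 0 of the 9, and limma-voom called 0 genes (0.0%). At an unadjusted p under 0.05, 1 factor was higher (Cux1) and 2 were lower (Fezf2 and Mef2c), while 6.57% of all genes tested were higher and 7.93% lower at that level. The fold changes ranged from -1.24 to 0.34 on the log2 scale, with a median of 0.04, against -0.01 over all genes tested.

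**Figure D1:**
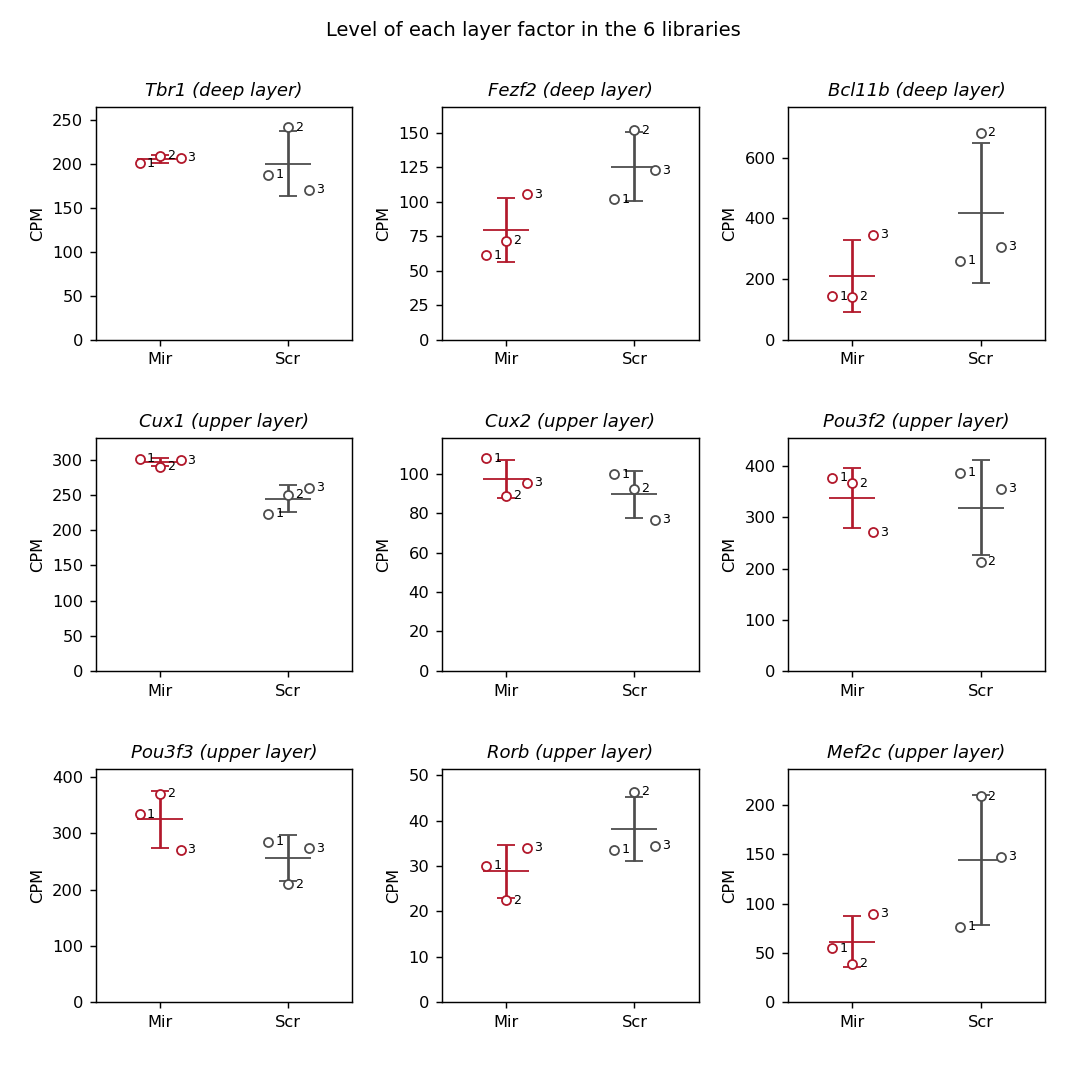
Level of each of the 9 layer factors in CPM (linear axis from 0) in the 3 Mir and the 3 Scr libraries; circles are libraries numbered by replicate, horizontal lines the means and bars the SD (n = 3). Cux1 is the factor whose groups do not overlap, at 290 to 301 CPM in Mir and 223 to 261 CPM in Scr, while Bcl11b and Mef2c spread most within groups relative to their means.

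Among the deep-layer factors, Fezf2 and Bcl11b had lower means in Mir and Tbr1 did not. Fezf2 (ENSMUSG00000021743, chromosome 14, 12342094 to 12348189 on GRCm38, minus strand), the zinc-finger gene that directs subcerebral fate, was at 61.3, 71.9 and 105.7 CPM in Mir, against 102, 152 and 123 CPM in Scr, again in the order of the replicates. Mir replicates 1 and 2 were the lowest libraries, and Mir replicate 3 lay just above Scr replicate 1, so that the groups overlapped. The mean of 79.6 ± 23.2 CPM in Mir was 63.4% of the 125.6 ± 25.1 CPM in Scr (SD, n = 3). On the log2 scale the fold change was -0.66 ± 0.22 (SE; 95% interval -1.18 to -0.14), and the edgeR adjusted p was 0.274, against 0.0684 from DESeq2. In bulk libraries, fewer cells of a type and less RNA per cell cannot be told apart.

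Bcl11b (ENSMUSG00000048251, chromosome 12, 107910403 to 108003602, minus strand) was at 143, 141 and 347 CPM in Mir, against 261, 682 and 307 CPM in Scr. Its means were 210.3 ± 118 CPM in Mir and 417 ± 231 CPM in Scr (SD, n = 3). The log2 fold change, -0.99 ± 0.46 (edgeR adjusted p 0.380), had a 95% interval from -2.06 to 0.09. Mir replicate 3 was above Scr replicates 1 and 3, and the highest level was that in Scr replicate 2. The order of the libraries was near that of the inhibitory neuron markers. Dlx1 and Dlx2 are homeobox genes of inhibitory neurons. Dlx1 was at 45.0, 30.7 and 99.4 CPM in Mir and 80.4, 316 and 109.5 CPM in Scr, and Dlx2 was at 33.0, 31.7 and 87.6 CPM in Mir and 64.7, 203 and 73.6 CPM in Scr. The part of inhibitory neurons in the level of Bcl11b was not tested. Without Scr replicate 2 the log2 fold change was -0.44 (edgeR adjusted p 0.712), without Mir replicate 3 it was -1.56 (0.158), and without both it was -1.0 (0.0407), the sole setting run in which a layer factor passed. In that setting edgeR called 29 genes in all (0.171%). These 2 libraries were chosen because earlier results showed them standing apart, and each held the highest Bcl11b level of its group.

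Tbr1 (ENSMUSG00000035033, chromosome 2, 61802930 to 61814114, plus strand), the T-box factor of corticothalamic and other early-born neurons, was at 201, 209 and 207 CPM in Mir, against 188, 241 and 171 CPM in Scr. The Mir libraries lay within the range of the Scr libraries, at 206 ± 4.29 CPM in Mir and 199.9 ± 37.0 CPM in Scr (SD, n = 3). Its log2 fold change was 0.04 ± 0.13, with a 95% interval from -0.27 to 0.35 and an edgeR adjusted p of 0.919; it was -0.0022 without Scr replicate 1 and -0.05 without Scr replicate 3. Against the mean of the Scr libraries on the log2 scale, Fezf2 was at -1.01, -0.78 and -0.23 in the Mir libraries. Tbr1 was at 0.02, 0.08 and 0.065. Which cells of the mixture carried either transcript was not tested.

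Among the upper-layer factors, Cux1 showed the narrowest spread within each group relative to the group mean, and a small difference between groups. Cux1 (ENSMUSG00000029705, chromosome 5, 136248135 to 136567490, minus strand) was at 301, 290 and 299 CPM in Mir, against 223, 250 and 261 CPM in Scr, so that every Mir library lay above every Scr library. It was the sole factor of the 9 with no overlap between groups, while 20.0% of all genes tested had none; it lay above, as did 9.72% of all genes, and 0 factors lay below, against 10.3% of all genes. The count depended on the libraries. It was 4 of 9 without Scr replicate 1 (33.0% of all genes tested), 2 without Scr replicate 2 (30.6%) and 6 without Mir replicate 3 (37.7%). It was 1 when Scr replicate 3 (29.5%), Mir replicate 1 (27.6%) or Mir replicate 2 (26.2%) was left out, and 7 without both Scr replicate 2 and Mir replicate 3 (50.4%). The means were 297 ± 5.81 CPM in Mir and 245 ± 19.4 CPM in Scr (SD, n = 3). The log2 fold change was 0.28 ± 0.09 (95% interval 0.08 to 0.48), at an adjusted p of 0.246 in edgeR and 0.0815 in DESeq2. Gm16599, an antisense gene that shares 394 exonic bases with Cux1, was at 8.71, 8.82 and 7.40 CPM in Mir and 5.38, 6.81 and 5.00 CPM in Scr (log2 fold change 0.54 ± 0.21, edgeR adjusted p 0.319). The kit does not mark strand, so reads in that stretch cannot be told apart. The Cux1 locus also encodes CASP, a Golgi protein that shares its first exons, and gene counts do not separate the products.

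Cux2 (ENSMUSG00000042589, chromosome 5, 121856366 to 122050102, minus strand), its paralog in upper-layer neurons and their intermediate progenitors, was at 108, 88.8 and 95.5 CPM in Mir, against 99.6, 92.5 and 76.5 CPM in Scr. The groups overlapped, and the mean of this gene with the 8-base seed match was not lower in Mir, at 97.4 ± 9.69 CPM in Mir and 89.5 ± 11.8 CPM in Scr (SD, n = 3). The log2 fold change was 0.12 ± 0.13 (edgeR adjusted p 0.692), and its 95% interval, -0.17 to 0.41, lay on both sides of 0.

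The POU genes were each a single exon and had higher means in Mir. Pou3f3 (ENSMUSG00000045515, chromosome 1, 42695768 to 42703176, plus strand) was at 334, 371 and 271 CPM in Mir, against 285, 209.8 and 273 CPM in Scr. Mir replicate 3 lay just below Scr replicates 1 and 3, and Scr replicate 2 was the lowest library. Its log2 fold change was 0.34 ± 0.15 (edgeR adjusted p 0.356; 95% interval -0.01 to 0.70). Pou3f2 (ENSMUSG00000095139, chromosome 4, 22482780 to 22488366, minus strand) was at 377, 367 and 271 CPM in Mir, against 387, 213 and 356 CPM in Scr, with a log2 fold change of 0.09 ± 0.23 (edgeR adjusted p 0.898). The sign for Pou3f2 rested on single libraries: its log2 fold change was -0.14 with Scr replicate 2 left out and -0.0019 with Mir replicate 1 left out. Both POU genes were lowest in Scr replicate 2, the library richest in inhibitory neuron RNA, and next lowest in Mir replicate 3, where each happened to have 3991 counts.

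Pou3f3 lies 926 bases from Pantr1, a long noncoding RNA gene on the opposite strand, and 3885 bases from Pantr2. Pantr1 (ENSMUSG00000060424) was at 1008, 988 and 775 CPM in Mir and 835, 541 and 861 CPM in Scr (0.31 ± 0.19 on the log2 scale, edgeR adjusted p 0.486). Pantr2 (ENSMUSG00000097063) was at 31.2, 35.1 and 24.3 CPM in Mir and 30.8, 14.4 and 19.6 CPM in Scr (0.49 ± 0.28, edgeR adjusted p 0.464). As with Pou3f3, the lowest Mir library was replicate 3 and the lowest Scr library replicate 2 for both noncoding genes, and no exon of either overlaps Pou3f3. Pantr1, Pantr2 and Gm16599 were singled out after values were seen.

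Rorb and Mef2c had lower means in Mir, unlike the other upper-layer factors. Rorb (ENSMUSG00000036192, chromosome 19, 18930605 to 19111196, minus strand), a nuclear receptor of layer 4 neurons, was at 30.1, 22.4 and 34.0 CPM in Mir, against 33.6, 46.4 and 34.5 CPM in Scr. Mir replicate 3 lay between Scr replicates 1 and 3, which were close together. The log2 fold change was -0.40 ± 0.20 (edgeR adjusted p 0.391), on counts of 351 to 501 in Mir and 431 to 641 in Scr, the smallest of the 9 genes; the shorter seed match shown for Rorb lies near the end of its 3′ UTR.

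Mef2c (ENSMUSG00000005583, chromosome 13, 83504034 to 83667080, plus strand), a MADS-box factor of maturing neurons, had the largest fold change of the 9. It was at 54.4, 39.1 and 89.8 CPM in Mir, against 76.3, 209 and 148 CPM in Scr. Scr replicate 1 lay below Mir replicate 3, so that the groups overlapped in that pair. The means were 61.1 ± 26.0 CPM in Mir and 144 ± 66.4 CPM in Scr (SD, n = 3). The fold change was -1.24 ± 0.40 on the log2 scale (95% interval -2.18 to -0.30; edgeR adjusted p 0.261). DESeq2 gave an adjusted p of 0.168, and the edgeR log2 fold change was -0.88 (adjusted p 0.422) without Scr replicate 2 and -1.64 (0.156) without Mir replicate 3. Endothelial cells, microglia and inhibitory neurons also express Mef2c. Of their markers 9 of 9, 9 of 9 and 12 of 12 had a negative log2 fold change, with medians of -2.90, -1.46 and -1.60; edgeR called 0 of these, and DESeq2 2 of the inhibitory neuron list. The endothelial genes Cldn5 and Flt1 had 0 to 0.319 CPM in Mir replicates 1 and 2 and 8.96 and 5.77 CPM in Mir replicate 3. In Scr, Cldn5 was at 28.3, 64.9 and 3.91 CPM and Flt1 at 11.7, 35.9 and 1.99 CPM. Of the microglial genes, Csf1r was at 10.1, 10.99 and 13.4 CPM in Mir and 10.2, 17.6 and 14.3 CPM in Scr, and C1qc at 0, 0.511 and 11.3 CPM in Mir and 1.87, 9.92 and 15.3 CPM in Scr. Their part in the level of Mef2c was not tested. The lowest levels of Mef2c, 54.4 and 39.1 CPM, were those of Mir replicates 1 and 2, where endothelial markers summed to 1.21 and 1.47 CPM. Elsewhere the order by Mef2c and the order by endothelial markers differed. Mef2c was at 89.8 CPM in Mir replicate 3 and 76.3, 209 and 148 CPM in Scr. The endothelial markers there summed to 36.0 CPM and to 82.2, 219 and 12.4 CPM. The inhibitory neuron markers summed to 145, 126 and 342 CPM in Mir and 277, 1083 and 392.5 CPM in Scr. The libraries stood in the same order by that sum as by Mef2c. The microglial markers summed to 10.1, 12.7 and 53.4 CPM in Mir and 20.1, 56.8 and 74.4 CPM in Scr. Their order was that of Mef2c except between Mir replicates 1 and 2 and between Scr replicates 2 and 3.

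**Figure D2:**
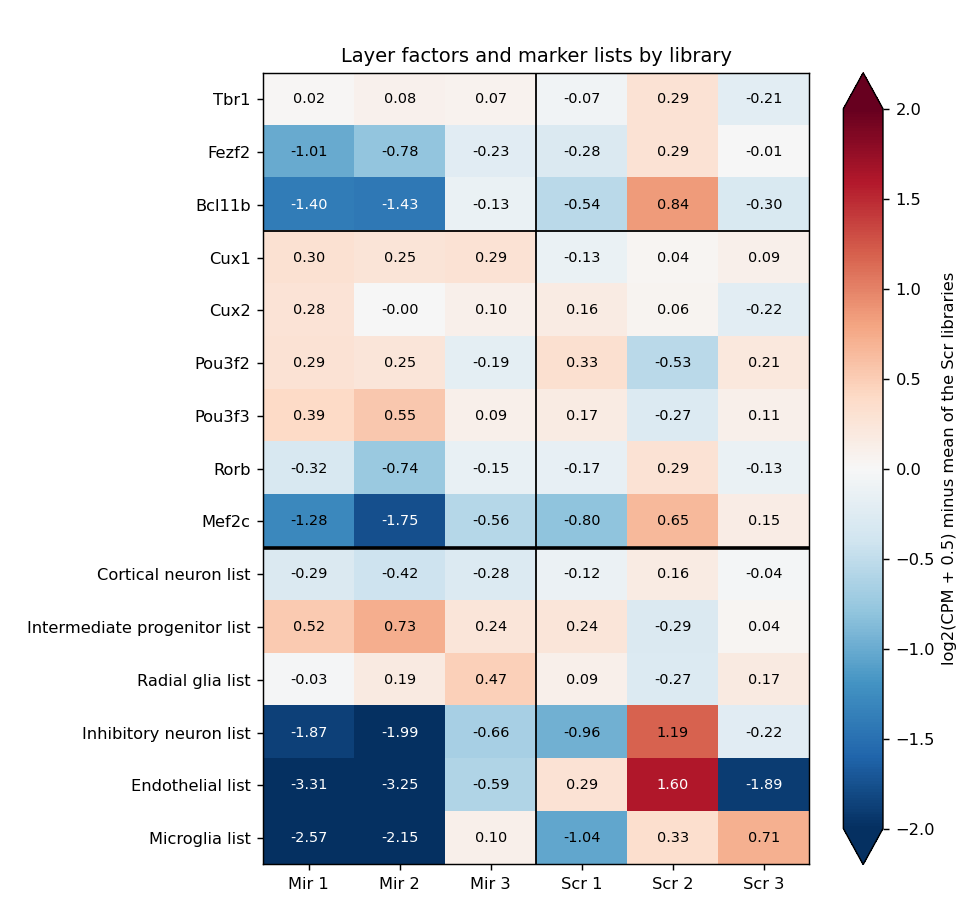
Level of each layer factor (top 9 rows) and mean level of 6 marker lists (bottom 6 rows) in each library, as log2(CPM + 0.5) minus the mean of the Scr libraries; columns are the 3 Mir and then the 3 Scr libraries, and colours saturate at 2 on either side. Bcl11b and Mef2c are lowest in Mir replicates 1 and 2 (-1.75 to -1.28) and highest in Scr replicate 2. So are the inhibitory neuron, endothelial and cortical neuron lists, the last with Mir replicates 1 and 3 close together (-0.29 and -0.28). Cux1 is at 0.25 to 0.30 in each Mir library.

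Set side by side, the deep-layer factors had a median log2 fold change of -0.66 and the upper-layer factors of 0.10, a difference of 0.76 between the medians, against a median of -0.01 over all genes tested. Of the 3 deep-layer factors 1 had a positive fold change and 2 a negative one, and of the 6 upper-layer factors 4 and 2. The mean level of the deep-layer factors against the Scr mean, on the log2(CPM + 0.5) scale, was -0.80, -0.71 and -0.10 in the Mir libraries and -0.30, 0.47 and -0.18 in the Scr libraries. For the upper-layer factors it was -0.06, -0.24 and -0.07 in Mir and -0.07, 0.04 and 0.03 in Scr. The upper set minus the deep set was 0.74, 0.47 and 0.03 in Mir and 0.23, -0.44 and 0.21 in Scr. Mir replicates 1 and 2 lay above all Scr libraries in this measure, and Mir replicate 3 lay below Scr replicates 1 and 3. With Scr replicate 2 left out, the deep-layer median was -0.44, the upper-layer median 0.00374 and the difference 0.44; with Mir replicate 3 left out the difference was 1.09. The factors are not replicates of one another and were chosen with earlier results known, so the difference has no test.

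The split was not clean by layer. With Rorb and Mef2c left out, the remaining 4 upper-layer factors, Cux1, Cux2, Pou3f2 and Pou3f3, all had positive fold changes with a median of 0.20, and their mean level minus that of the deep set was 1.11, 0.97 and 0.17 in Mir and 0.43, -0.65 and 0.22 in Scr. Tbr1, a deep-layer factor, was nearer to these 4 than to Fezf2 or Bcl11b. The 4 are also active in progenitors or newly made neurons of the ventricular and subventricular zones, and the intermediate progenitor list had a positive fold change for 9 of 9 genes, with a median of 0.55 (edgeR called 0, DESeq2 3). Its genes summed to 3290, 3740 and 2654 CPM in Mir and to 2693, 1790 and 2396 CPM in Scr. For 4 of the 9 (Neurog1, Insm1, Btg2 and Dll1) every Mir library lay above every Scr library, as for 9.72% of all genes tested. In this list DESeq2 called Insm1 (adjusted p 0.0233), Btg2 (0.00575) and Dll1 (0.0014), and it called 1.46% of all genes tested higher. Insm1 was at 1029 ± 97.5 CPM in Mir and 702 ± 137 CPM in Scr (SD, n = 3; 0.55 ± 0.15, edgeR adjusted p 0.223), and Neurog2, a proneural gene of these cells, at 634 ± 124 CPM in Mir and 428 ± 115 CPM in Scr (0.57 ± 0.21, 0.295). Of the radial glia list 8 of 9 genes had a positive fold change, with a median of 0.19, and of the cortical neuron list 4 of 14, with a median of -0.23; edgeR called 0 in either, and DESeq2 0 and 2. The radial glia genes Fabp7 and Vim stood at 0.36 ± 0.21 and 0.23 ± 0.17 on the log2 scale (edgeR adjusted p 0.474 and 0.554), and the neuronal genes Neurod6 and Elavl4 at -0.13 ± 0.10 and 0.19 ± 0.20 (0.574 and 0.713). These 2 neuronal genes were named for their high level and are not typical of the 10 with a negative fold change, of which Elavl3, Gap43, Stmn2 and Mapt were added after their values were seen. The DESeq2 calls of the cortical neuron list were Elavl3, an RNA-binding protein of neurons, and Gap43, a growth cone protein. Elavl3 was at 153, 144 and 143 CPM in Mir and 206, 222 and 219.7 CPM in Scr (-0.56 ± 0.08, adjusted p 0.159 in edgeR and 9.32e-07 in DESeq2). It was the 1 gene of the 14 with every Mir library below every Scr library, as for 10.3% of all genes tested. Gap43 was at 111, 89.8 and 163 CPM in Mir and 135, 306 and 234 CPM in Scr (-0.89 ± 0.32, 0.284 in edgeR and 0.0478 in DESeq2). The cytoskeletal genes of maturing neurons did not pass either tool. Stmn2 was at 188, 113 and 371 CPM in Mir and 354, 778 and 524 CPM in Scr (-1.30 ± 0.44, edgeR adjusted p 0.274), and Mapt at 131, 112 and 234 CPM in Mir and 194, 491 and 318 CPM in Scr (-1.07 ± 0.38, edgeR adjusted p 0.282). Stmn2, Mapt and Gap43 were lowest in Mir replicates 1 and 2 and highest in Scr replicate 2, as Bcl11b and Mef2c were. The part of progenitors and of maturing neurons in the levels of the layer factors was not tested.

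Other genes of the same layers gave a broader view. Of 11 other deep-layer genes 10 had a negative and 1 (Pcp4, named after its value was seen) a positive fold change, with a median of -0.36, and 0 of them passed edgeR or DESeq2. Sox5, which controls the order in which deep-layer neurons are made, was at 121, 126 and 139 CPM in Mir and 149, 182 and 161 CPM in Scr (-0.35 ± 0.11 on the log2 scale, edgeR adjusted p 0.246). Bcl11a, the paralog of Bcl11b, was at 279, 278.5 and 276 CPM in Mir and 322, 357 and 312 CPM in Scr (-0.25 ± 0.08, edgeR adjusted p 0.259). For both, 2 of the 11 genes, every Mir library lay below every Scr library, as for 10.3% of all genes tested. Ldb2, a cofactor of LIM factors in corticospinal neurons, was at 15.1, 8.94 and 37.6 CPM in Mir and 33.0, 72.0 and 52.9 CPM in Scr (-1.36 ± 0.51, edgeR adjusted p 0.299).

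Of 10 other upper-layer genes 3 had a positive and 7 a negative fold change, with a median of -0.16, so that the list of upper-layer genes did not share the positive median of the upper-layer factors. Lmo4, a LIM-only gene of callosal neurons, was at 22.8, 30.7 and 37.1 CPM in Mir and 47.1, 73.85 and 43.5 CPM in Scr. It was the 1 gene of the 10 with every Mir library below every Scr library, as for 10.3% of all genes tested. Its log2 fold change was -0.86 ± 0.25, with an edgeR adjusted p of 0.236 and a DESeq2 adjusted p of 0.0263. That was the sole call of DESeq2 among the layer genes, while DESeq2 called 3.43% of all genes tested. Plxnd1, a semaphorin receptor that vessels also express, was at 1.02, 0.447 and 3.73 CPM in Mir and 6.08, 14.48 and 2.83 CPM in Scr (log2 fold change -2.17 ± 0.83, edgeR adjusted p 0.307). Kitl, the ligand of the receptor Kit, was at 11.3, 9.58 and 18.2 CPM in Mir and 13.8, 53.4 and 20.3 CPM in Scr (-1.16 ± 0.50, edgeR adjusted p 0.344). Both were highest in Scr replicate 2, as Mef2c was. The mean level of the other upper-layer genes minus that of the other deep-layer genes was 0.26, 0.07 and -0.08 in Mir and 0.00, 0.11 and -0.11 in Scr, a measure in which the groups overlapped.

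**Figure D3:**
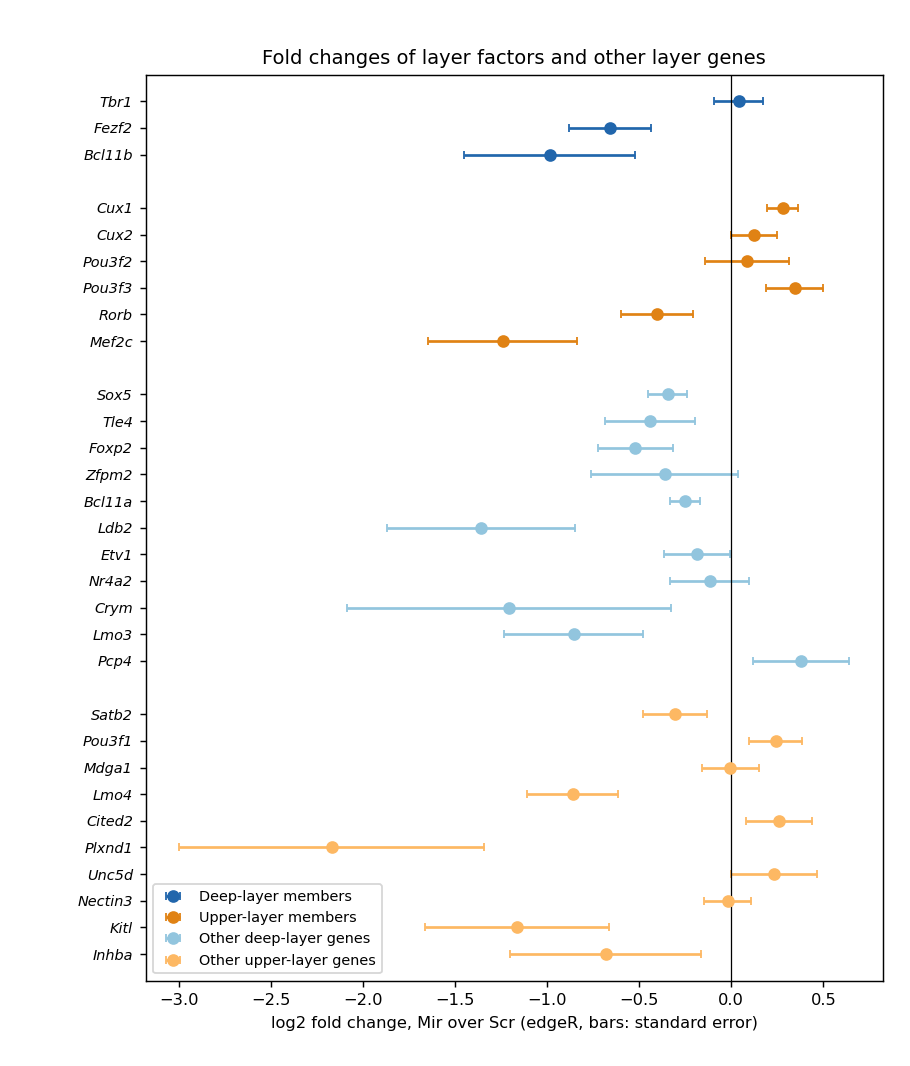
Log2 fold change, Mir over Scr, with its standard error (edgeR) for the deep-layer and upper-layer factors and for 11 other deep-layer and 10 other upper-layer genes. Of the other deep-layer genes 10 lie left of 0, and Cux1, Cux2, Pou3f2 and Pou3f3 lie right of it.

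The nearest relatives of the 9 factors were measured too. Of 11 paralogs 8 were tested, 4 with a positive and 4 with a negative fold change and a median of -0.05; Fezf1 had no count in any library, and Tbx21 and Mef2b were too low to test. Mef2a, a paralog of Mef2c found in many cell types, was at 37.6, 35.45 and 40.2 CPM in Mir and 49.9, 65.3 and 41.55 CPM in Scr (log2 fold change -0.47 ± 0.17, edgeR adjusted p 0.289). Mef2a and Bcl11a were the 2 of 8 tested paralogs with every Mir library below every Scr library, as for 10.3% of all genes tested. Eomes (Tbr2), the paralog of Tbr1 that defines intermediate progenitors, was at 479, 524 and 270.4 CPM in Mir and 363, 173.5 and 274 CPM in Scr (0.65 ± 0.31, edgeR adjusted p 0.388). Eomes was lowest in Scr replicate 2 and next in Mir replicate 3, the order seen for Pou3f2 and Pou3f3.

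Levels were compared between the factors per kb of exon. In Mir the order by mean CPM per kb was Pou3f2 (60.5 ± 10.5), Pou3f3 (43.9 ± 6.82), Tbr1 (37.5 ± 0.783), Fezf2 (26.1 ± 7.62), Bcl11b (25.9 ± 14.6), Cux1 (14.8 ± 0.290), Cux2 (9.66 ± 0.961), Mef2c (3.89 ± 1.65) and Rorb (2.60 ± 0.532), each with its SD over 3 libraries. In Scr it was Pou3f2 (57.1 ± 16.6), Bcl11b (51.4 ± 28.5), Fezf2 (41.2 ± 8.24), Tbr1 (36.5 ± 6.74), Pou3f3 (34.6 ± 5.46), Cux1 (12.2 ± 0.967), Mef2c (9.18 ± 4.22), Cux2 (8.88 ± 1.17) and Rorb (3.45 ± 0.646). Among neighbours in Mir, the library ranges of Pou3f2 and Pou3f3, Pou3f3 and Tbr1, Fezf2 and Bcl11b, and Mef2c and Rorb overlapped. In Scr the first 5 factors overlapped from neighbour to neighbour, as did Cux1, Mef2c and Cux2, and Rorb lay below the rest. The length is that of all annotated exons of the gene, so a factor with many unused exons, such as Cux1 with 20024 bases, is set low.

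**Figure D4:**
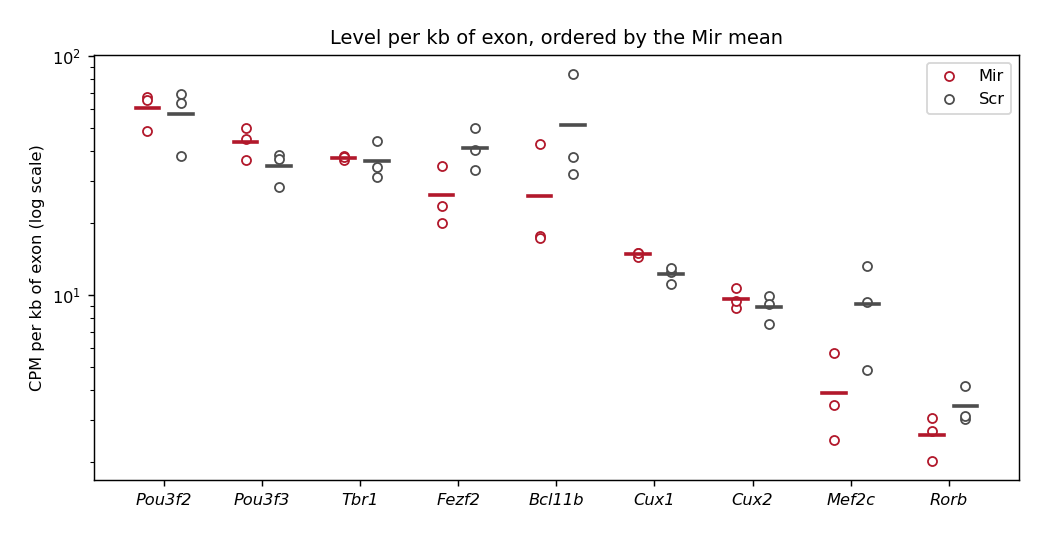
CPM per kb of exon (log axis) of the 9 factors, ordered by the Mir mean; circles are the 3 libraries of each group, Mir left of Scr, and lines the means. Fezf2, Bcl11b and Mef2c are the factors whose Mir means lie farthest below the Scr means, and the POU genes and Tbr1 are above the Cux genes in both groups.

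Across the 6 libraries Mef2c, Bcl11b and Fezf2 varied most, with SDs of 0.89, 0.85 and 0.48 on the log2(CPM + 0.5) scale. Cux2, Tbr1 and Cux1 varied least, at 0.17 each. Likeness of profile was measured as the root-mean-square difference of centred log2 levels over the 6 libraries, among 15794 genes with a mean of at least 1 CPM. Nearest to Mef2c were Lingo1 (0.0745), a membrane protein of axons, Gpr12 (0.0807), an orphan receptor, and Ntm (0.0908), the adhesion molecule neurotrimin. Nearest to Bcl11b were Cxcr4 (0.0858), the chemokine receptor that guides migrating inhibitory neurons, Gm37180 (0.0923) and Ptchd4 (0.114). Nearest to Fezf2 were Rprm (0.0604), known as a gene of deep-layer neurons, Zfp804a (0.0631) and Adgrb3 (0.0702). With 2 in place of 0.5 as the added constant, the neighbours of each of the 3 factors changed. Mef2c was then nearest to Ntm (0.0875), Lingo1 (0.115) and Glra2 (0.115), Bcl11b to Vstm2l (0.0831), Caly (0.114) and Dlx2 (0.115), and Fezf2 to Adcy2 (0.0522), Rprm (0.0609) and Kcnmb4os1 (0.0695).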

How the data were processed

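RNA of the sorted cells (integrity number above 9.5) was made into SMART-seq v4 libraries and read as 50 bp single reads, per the labels' protocols. The authors deposited whole-number read counts per gene without normalization. The submitters' processing notes name HISAT2 2.1.0 and HTSeq 0.11.0, as well as DESeq2 1.18.1, with mm10 (GRCm38) as build; the strand setting and annotation used were not given in the sources used here. Of 54146 genes, 54079 matched a symbol in GENCODE M21. The 5 summary lines that name no gene were left out; 21.9 to 23.6% of listed reads lay in genes. Amplified reads are not independent molecules, which limits the precision that depth gives.

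Mir and Scr were compared with edgeR 4.0.16 (R 4.3.3; quasi-likelihood F test, two-sided, group as sole term, trimmed mean of M values, filterByExpr) over all genes, with Benjamini-Hochberg adjustment. CPM are counts per 1000000 of the normalized library size, which is the total over the genes tested. DESeq2 1.42.0, limma-voom (limma 3.58.1), other scalings and filters, a replicate block and left-out libraries were alternatives. The code was tested on simulated data. Each library is a separate pool of embryos, so p-values measure the spread between pools; no library repeated another (chi-square per degree of freedom 8.07 to 28.0 within groups).

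All 9 factors were named; of the other layer genes and paralogs, the 3 with the smallest p per list; of the marker lists, those with the highest mean; and the 3 nearest profiles of the 3 most variable factors. Neurog1, Btg2, Dll1, Sp8, Dlx6, Trp73, Lhx1 and Lhx5 were named after their values were seen. The factors and lists were chosen with earlier results of these data known.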

Additional observations from a re-analysis of the deposited data

How the results depend on the processing

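Among the 9 factors, edgeR, DESeq2 and limma-voom, the other scalings and filters and each single left-out library called 0 higher and 0 lower. Without Scr replicate 2 and Mir replicate 3, a choice made because earlier results showed these libraries standing apart, edgeR called 1 lower (Bcl11b) and 29 genes in all (0.171%); with no filter on low counts it called 31 of 30638 genes (0.101%) and 0 factors. The number of factors with no overlap between groups was 1 with all libraries, 1 to 6 when a single library was left out (4 without Scr replicate 1, 2 without Scr replicate 2, 6 without Mir replicate 3), and 7 with both Scr replicate 2 and Mir replicate 3 left out; the share of all genes tested was then 33.0%, 30.6%, 37.7% and 50.4%. Signs turned for Tbr1, to -0.0022 (Scr replicate 1 left out) and -0.053 (Scr replicate 3 left out), and for Pou3f2, to -0.14 (Scr replicate 2 left out), -0.0019 (Mir replicate 1 left out) and -0.00017 (both Scr replicate 2 and Mir replicate 3 left out); with single libraries left out they ranged from -0.053 to 0.20 and from -0.14 to 0.24. The other 7 factors kept their direction in 14 of 14 alternatives. The cause was not tested. The deep-layer median was -0.93 to -0.44 with single libraries left out, the upper-layer median 0.00374 to 0.21 (0.20 without Rorb and Mef2c) and their difference 0.44 to 1.09. With the replicate number as a block, no factor was called and the medians were -0.68 and 0.12. Deviations from the group means correlated at 0.25, -0.15 and -0.09 between same-numbered libraries. The other pairs across groups lay between -0.33 and 0.36. With 3 libraries per group these correlations cannot decide whether the numbers pair the libraries. All 9 factors had at least 351 counts per library; the effect of depth was not tested.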
